A study of Homo sapiens with 2 samples.

Results

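RNF43, ZNRF3, AXIN2 and NKD1 are feedback genes of the Wnt/β-catenin pathway, and the binding of FLAG-Cdx1 and FLAG-Cdx2 at these 4 genes was examined in DLD1-TetOff cells. A window was taken around each gene with about 10 kb added on each side (GRCh37), and every ChIP-seq peak with its summit in a window was a member. The windows follow gene position and use no peak value, although the genes were chosen with earlier results of these data known. They covered 442 kb in all and held 29 of the 196910 FLAG-Cdx1 peaks and 37 of the 218718 FLAG-Cdx2 peaks, that is, 66 of 415628 peaks.

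The Wnt pathway is active in colon cancer cells in which β-catenin is stabilized and, together with TCF/LEF factors, turns on its target genes. Several of these targets feed back on the pathway and dampen it. RNF43 and ZNRF3 are transmembrane E3 ubiquitin ligases that remove Frizzled receptors from the cell surface, AXIN2 is a scaffold of the complex that degrades β-catenin, and NKD1 acts on Dishevelled, which relays the signal inside the cell. In the crypt of the intestine, R-spondins and their LGR receptors protect the Wnt signal by clearing RNF43 and ZNRF3 from the membrane. CDX1 and CDX2 are homeodomain transcription factors of the intestinal epithelium, and the question here is where they were detected at genes that restrain this pathway.

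DLD1-TetOff cells are a human colon cancer line with a transactivator that is off in the presence of doxycycline (DOX). One clone carried FLAG-tagged Cdx1 and another FLAG-tagged Cdx2, both of mouse origin and derived from single cells, so the factor and the clone cannot be told apart. Each library came from 10 pooled dishes fixed 20 h after DOX (0.5 µg/mL) was removed, and the description attached to each library says only that its cells lack the tagged protein in DOX. The libraries are treated here as induced, as the growth and treatment protocols give it. Chromatin was cut with MNase (50 min) and precipitated with anti-FLAG beads. There was 1 library per factor, with 16452141 tags kept for FLAG-Cdx1 and 13781541 for FLAG-Cdx2, and no input library or library from uninduced cells was analyzed here. Differences between the libraries were therefore not tested, and all intervals below cover counting error only. The lists hold binding peaks and do not show expression, so the identity of the cells was not checked against marker genes.

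Each peak is described by its pileup, the number of fragments covering the summit (not scaled to depth), and by its fold enrichment, in which pileup, plus 1, is divided by the local background, plus 1. A pileup percentile gives how much of a library's own list lies at lower pileups. A peak was called shared when a summit of the other library lay within 100 bp. Over the whole lists, 29.2% of FLAG-Cdx1 peaks and 26.3% of FLAG-Cdx2 peaks were shared. Gene starts and ends were taken as lying 10 kb inside the window edges, and are good to about 1 kb.

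In the whole lists, the median pileup was 9 with FLAG-Cdx1 and 8 with FLAG-Cdx2, with median fold enrichments of 5.33 and 4.72. The 4 windows together had median pileups of 10 and 9 and median fold enrichments of 5.22 and 4.89. Of their peaks, 7 of 29 FLAG-Cdx1 peaks were shared (24.1%; 95% exact binomial interval, 10.3 to 43.5) and 7 of 37 FLAG-Cdx2 peaks (18.9%; 7.96 to 35.2). Both shares were near those of the whole lists. A −log10 q of at least 5 was reached by 16 FLAG-Cdx1 peaks (55.2%) against 52.2% of the list, and by 13 FLAG-Cdx2 peaks (35.1%) against 29.0%. A pileup above that of 90% of the list was found at 3 FLAG-Cdx1 peaks (10.3%) against 8.67% of all peaks, and at 6 FLAG-Cdx2 peaks (16.2%; 6.19 to 32.0) against 7.62%. As a group, the windows thus had shares whose intervals all included the share of the whole list.

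**Figure D1:**
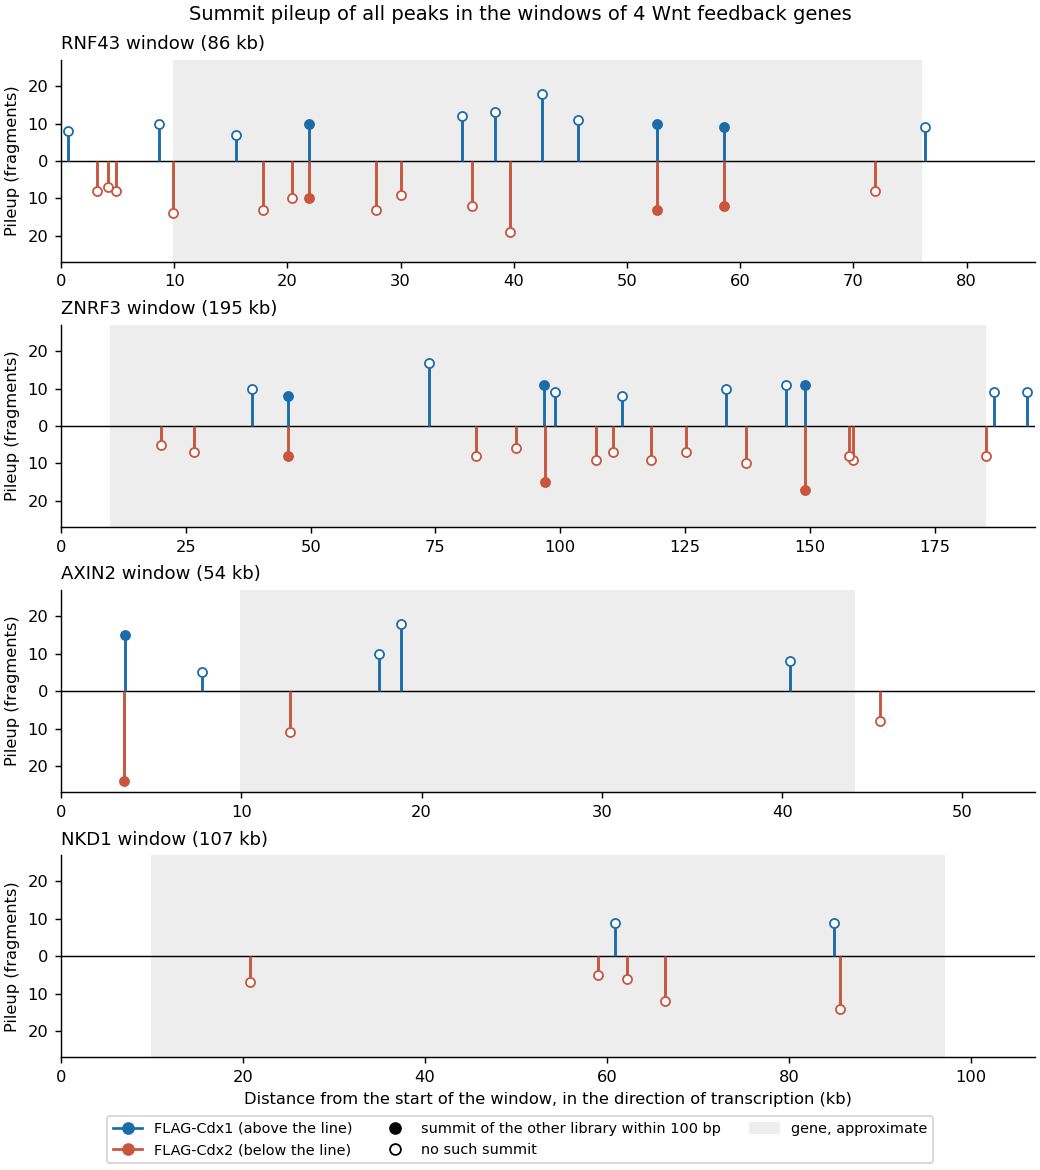
Pileup at the summit (fragments, vertical axis) of every peak against the distance from the start of the window in the direction of transcription (kb, horizontal axis), with FLAG-Cdx1 above and FLAG-Cdx2 below the line. Filled circles mark the 7 shared sites, and grey marks the approximate gene. RNF43 had 11 FLAG-Cdx1 and 14 FLAG-Cdx2 summits, whereas NKD1 had 2 FLAG-Cdx1 and 5 FLAG-Cdx2 summits and no shared site.

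The windows differed in how many peaks they held per length. The RNF43 window held 11 FLAG-Cdx1 and 14 FLAG-Cdx2 peaks in 86 kb, or 12.8 per 100 kb (95% exact Poisson interval, 6.39 to 22.9) and 16.3 per 100 kb (8.90 to 27.3). The ZNRF3 window held 11 and 15 peaks in 195 kb, or 5.64 (2.82 to 10.1) and 7.69 (4.31 to 12.7) per 100 kb. The AXIN2 window held 5 and 3 peaks in 54 kb, or 9.26 (3.01 to 21.6) and 5.56 (1.15 to 16.2) per 100 kb. The NKD1 window held 2 and 5 peaks in 107 kb, or 1.87 (0.226 to 6.75) and 4.67 (1.52 to 10.9) per 100 kb. With all peaks, RNF43 was the densest and NKD1 the sparsest window in both libraries, and AXIN2 and ZNRF3 changed places between them. The low end of this order did not hold for FLAG-Cdx2 under other settings. With a −log10 q of 5 or more, ZNRF3 (1.54) and AXIN2 (1.85) were below NKD1 (1.87 per 100 kb), and about the gene alone AXIN2 had 2.94 and NKD1 5.75 per 100 kb. For FLAG-Cdx1, the top of the order changed in the 50000 peaks of highest −log10 q, where AXIN2 had 3.70 and RNF43 1.16 per 100 kb.

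Over the 28177 bins of 100 kb that held a peak in either library, the mean was 6.99 FLAG-Cdx1 and 7.76 FLAG-Cdx2 peaks per bin. The FLAG-Cdx2 interval of RNF43 lay above this mean and the FLAG-Cdx1 interval of NKD1 lay below it, whereas the other 6 intervals included it. The density at RNF43 was above the count of 93.7% of the bins with FLAG-Cdx1 and 99.25% with FLAG-Cdx2, and that at NKD1 was above 5.89% and 18.9%. ZNRF3 (35.1% and 47.3%) and AXIN2 (78.0% and 26.9%) lay between. RNF43 and AXIN2 lie on chromosome 17, whose bins had means of 6.21 FLAG-Cdx1 and 7.98 FLAG-Cdx2 peaks, the highest of the 3 chromosomes. Chromosomes 16 (NKD1) and 22 (ZNRF3) had means of 5.82 and 5.75 with FLAG-Cdx1 and of 7.07 and 7.42 with FLAG-Cdx2. Against the mean of its own chromosome, the FLAG-Cdx1 interval of NKD1 (0.226 to 6.75) included the mean. The FLAG-Cdx2 interval of RNF43 (8.90 to 27.3) lay above that of chromosome 17, and its FLAG-Cdx1 interval (6.39 to 22.9) lay just above it. The other intervals of ZNRF3, AXIN2 and NKD1 included the mean of their chromosome. The part of the chromosome in the order of the windows was not tested.

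Among the 6 pairs of windows in each library, the interval of the ratio of densities left out 1 only for RNF43 against NKD1. This ratio was 6.84 (1.49 to 63.5) with FLAG-Cdx1 and 3.48 (1.19 to 12.4) with FLAG-Cdx2. RNF43 against its paralog ZNRF3 gave 2.27 (0.892 to 5.77) and 2.12 (0.946 to 4.70). For neighbors in the order of density, the interval included 1. When peaks below a −log10 q of 5 were left out, RNF43 held 5 FLAG-Cdx1 peaks, more per length than 81.7% of the bins, and 7 FLAG-Cdx2 peaks, more than 99.6% of the bins. In lists cut to the 50000 peaks of highest −log10 q, it held 1 and 7 peaks, and the place among the bins was 50.4% with FLAG-Cdx1 and 99.8% with FLAG-Cdx2. In the same strict lists, the place of NKD1 was 17.6% and then 0% with FLAG-Cdx1, and 39.4% and then 50.45% with FLAG-Cdx2, where AXIN2 had the same places. AXIN2 with FLAG-Cdx1 stood at 51.9% and then 88.3%, above RNF43 in the shorter list. ZNRF3 stood at 51.9% and then 21.8% with FLAG-Cdx1, and at 39.4% and then 50.45% with FLAG-Cdx2.

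RNF43 (gene ID 54894) is read from the minus strand of chromosome 17, and its window ran from 56419000 to 56505000. The next protein-coding genes in RefSeq are HSF5 on the upstream side and SUPT4H1, which encodes the SPT4 subunit of DSIF, on the downstream side. The FLAG-Cdx1 peak of highest pileup had its summit at 56462505, about 32 kb into the gene, with 18 fragments (95% exact Poisson interval, 10.7 to 28.4), a percentile of 94.6 and a fold enrichment of 6.77. The next FLAG-Cdx1 peaks, at 56466679 and 56469536, had 13 and 12 fragments and fold enrichments of 5.08 and 5.35. These 3 summits lay within the gene, and no FLAG-Cdx2 summit was within 100 bp of them. The nearest was 2835, 1339 and 835 bp away, respectively.

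The FLAG-Cdx2 peak of highest pileup at RNF43 was in the same stretch, with its summit at 56465340, 19 fragments (11.4 to 29.7), a percentile of 97.7 and a fold enrichment of 6.89. The interior of RNF43 thus held the highest peak of each library, at places 2.8 kb apart. The next FLAG-Cdx2 peaks, with ties in pileup ordered by −log10 q, were at 56495083, with 14 fragments (7.65 to 23.5) and a −log10 q of 8.37, and at 56477194, with 13 fragments and a fold enrichment of 7.38. The same pileup of 13 was found at 56487184 and at 56452343, the latter a shared site. Pileups over the whole window ran from 7 to 18 with FLAG-Cdx1 and from 7 to 19 with FLAG-Cdx2. The median percentile was 50.1 for FLAG-Cdx1 and 79.2 for FLAG-Cdx2, so that the FLAG-Cdx2 peaks stood higher within their list by pileup. Ranked by fold enrichment, the medians were 44.6 and 63.9. The local background of the FLAG-Cdx2 peaks was 1.29 to 2.74 times the genome-wide value (median, 2.02), against a median of 1.08 over the list; for FLAG-Cdx1 it was 1.00 to 2.26 times (median, 1.41), against 1.17. The part of the background in the pileup and in the number of peaks was not tested.

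The FLAG-Cdx2 summit at 56495083 lay within 0.1 kb of the gene start of RNF43 as placed from the window, that is, at the start within the precision of 1 kb. Its pileup percentile was 92.4. The nearest FLAG-Cdx1 summit, at 56496343, lay about 1.3 kb upstream, with 10 fragments (percentile, 50.1), and was 1260 bp from the FLAG-Cdx2 summit. At AXIN2, the nearest summits lay about 2.2 kb (FLAG-Cdx1) and 2.7 kb (FLAG-Cdx2) from the start, which is itself placed only to about 1 kb. The summits nearest to the start in the ZNRF3 and NKD1 windows were FLAG-Cdx2 summits, about 10 and 11 kb away. As the data bear on the RNF43 start, the 250 bases before each of its start sites in RefSeq (GRCh38.p14, minus strand) are shown. RefSeq gave 2 starts for RNF43, 14.8 kb apart, and the table used here held no promoter of ZNRF3, AXIN2 or NKD1. Capitals mark TCF/LEF letters (CTTTGA or CTTTGT) and CDX letters (TTTAT or TTTATNG) on either strand, so that ACAAAG and ATAAA are the reverse complements of CTTTGT and TTTAT.
RNF43 outer start, chr17:58417535-58417784: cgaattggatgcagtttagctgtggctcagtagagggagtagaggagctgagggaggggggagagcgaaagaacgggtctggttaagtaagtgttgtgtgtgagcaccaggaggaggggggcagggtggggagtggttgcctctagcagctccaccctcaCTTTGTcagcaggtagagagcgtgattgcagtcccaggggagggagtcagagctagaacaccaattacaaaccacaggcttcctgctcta
RNF43 inner start, chr17:58402722-58402971: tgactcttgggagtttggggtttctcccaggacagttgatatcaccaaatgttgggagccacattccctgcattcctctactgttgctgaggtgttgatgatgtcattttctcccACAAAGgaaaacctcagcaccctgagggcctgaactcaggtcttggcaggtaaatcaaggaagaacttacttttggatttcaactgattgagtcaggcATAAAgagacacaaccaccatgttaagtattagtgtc

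The outer promoter held 1 CTTTGT on the sense strand, beginning 90 bases before the start, and no TTTAT. The inner promoter held 1 CTTTGT, beginning 135 bases before the start, and 1 TTTAT, beginning 37 bases before it, both on the opposite strand. TTTAT on either strand occurred in 32.7% of the 35116 RefSeq promoters over the same 250 bases, TTTATNG, which overlaps it, in 8.93%, CTTTGT in 13.7% and CTTTGA in 11.2%. These letters are a description of the sequence and not of binding. The peaks are on GRCh37 and the promoters on GRCh38.p14, so the summit at 56495083 was not placed on these bases, and sequence under the peaks was not analyzed here.

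From the gene start of RNF43 upstream, 2 FLAG-Cdx1 and 4 FLAG-Cdx2 summits lay within 9.3 kb, from 56495083 to 56504407. This was the densest 10 kb stretch of the window, picked by its count. None of these 6 was shared, against 29.2% of FLAG-Cdx1 and 26.3% of FLAG-Cdx2 peaks over the whole lists. With so few summits, this is not read as a trait of the stretch. Of the 11 FLAG-Cdx1 peaks of the window, 8 lay in the gene and 1 in the downstream flank, and of the 14 FLAG-Cdx2 peaks 10 lay in the gene and 0 downstream. Inside the gene, 3 sites were shared. At the site about 12 kb into the gene, the summits at 56483053 and 56483062 were 9 bp apart, with pileups of 10 and 10. About 43 kb in, the summits at 56452347 and 56452343 were 4 bp apart, with 10 FLAG-Cdx1 and 13 FLAG-Cdx2 fragments. About 49 kb in, those at 56446438 and 56446428 were 10 bp apart, with 9 and 12 fragments. The shared sites of RNF43 had percentiles of at most 50.1 with FLAG-Cdx1 and 89.8 with FLAG-Cdx2, and did not include the highest peak of either library. The shares of 27.3% (6.02 to 61.0) for FLAG-Cdx1 and 21.4% (4.66 to 50.8) for FLAG-Cdx2 had intervals that included the share of the whole list. Each of these 3 sites had a −log10 q below 5 in 1 library. With a −log10 q of 5 or more in both lists, the share was thus 0% of 5 FLAG-Cdx1 and of 7 FLAG-Cdx2 peaks. The share over the whole lists with this threshold was not determined.

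ZNRF3 (gene ID 84133) is read from the plus strand of chromosome 22, and its window ran from 29269000 to 29464000, with XBP1 the next protein-coding gene upstream and C22orf31 the next downstream. The highest FLAG-Cdx1 peak had its summit at 29342736, about 64 kb into the gene, with 17 fragments (9.90 to 27.2), a percentile of 93.2 and 9.59-fold enrichment. This was the highest fold enrichment of any of the 66 peaks. The nearest FLAG-Cdx2 summit was 9473 bp away. Among FLAG-Cdx2 peaks with a background like the median of this window, the lowest pileup called was 5. The FLAG-Cdx2 background at the FLAG-Cdx1 summit itself is not known, and whether weaker FLAG-Cdx2 binding was present there was not tested.

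The highest FLAG-Cdx2 peaks of ZNRF3 were shared sites. The summit at 29417957, about 139 kb into the gene, had 17 fragments (9.90 to 27.2), a percentile of 96.5 and a fold enrichment of 7.54, and lay 14 bp from a FLAG-Cdx1 summit at 29417971 with 11 fragments and a fold enrichment of 5.17. The summit at 29365870, about 87 kb in, had 15 fragments (8.40 to 24.7), a percentile of 94.2 and a fold enrichment of 7.19, and lay 75 bp from a FLAG-Cdx1 summit at 29365795 with 11 fragments and a fold enrichment of 5.54. The third FLAG-Cdx2 peak by pileup, at 29406204, had 10 fragments and a fold enrichment of 5.10 and was not shared, and neither was the third FLAG-Cdx1 peak, at 29414274, with 11 fragments and a fold enrichment of 5.35. The third shared site, about 36 kb in, was weak, with 8 fragments in each library at summits 11 bp apart.

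Along ZNRF3 the summits were unevenly placed. In the FLAG-Cdx1 library, the first 38.2 kb of the window, which include the gene start, held no summit, and the first one lay at 29307232, about 28 kb into the gene. With FLAG-Cdx2, the first summit was at 29289016, about 10 kb into the gene, with 5 fragments, a percentile of 1.51 and a fold enrichment of 2.99, the lowest of the FLAG-Cdx2 peaks in the 4 windows. In the upstream flank there were 0 summits in either library. Pileups ran from 8 to 17 with FLAG-Cdx1 (median percentile, 50.1) and from 5 to 17 with FLAG-Cdx2 (median percentile, 44.8). The shares of shared peaks were 27.3% (6.02 to 61.0) and 20.0% (4.33 to 48.1). The count was higher with FLAG-Cdx2 over all peaks, at 15 against 11, but lower once peaks under a −log10 q of 5 were set aside, at 3 against 7. The intervals of both ratios, 1.36 (0.585 to 3.28) and 0.429 (0.0715 to 1.88), included 1. The same turn of the order was found in the whole lists, where the ratio of FLAG-Cdx2 to FLAG-Cdx1 peaks was 1.11 for all peaks and 0.617 with this threshold.

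AXIN2 (gene ID 8313) is read from the minus strand of chromosome 17, and its window ran from 63514000 to 63568000, with CEP112 the next protein-coding gene upstream and RGS9 the next downstream. The highest peak of the 4 windows was at this gene. It was a FLAG-Cdx2 peak with its summit at 63564489, about 6.5 kb upstream of the gene start, with 24 fragments (15.4 to 35.7), a percentile of 99.0, a fold enrichment of 8.77 and a −log10 q of 15.4. The peak spanned 283 bp. A FLAG-Cdx1 summit lay 33 bp away, at 63564456, with 15 fragments (8.40 to 24.7), a percentile of 88.8 and a fold enrichment of 8.23. This was the only shared site at AXIN2 and the shared site with the highest pileup in each library among the 7.

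The highest FLAG-Cdx1 peak of AXIN2 was inside the gene, about 8.9 kb from its start, with its summit at 63549127, 18 fragments (10.7 to 28.4), a percentile of 94.6 and a fold enrichment of 7.66. A further FLAG-Cdx1 summit, at 63550348, lay 1221 bp from it with 10 fragments and 4.39-fold enrichment. The closest FLAG-Cdx2 summits were 6174 and 4953 bp from these. The remaining FLAG-Cdx2 peaks, at 63555301 and 63522587, had 11 and 8 fragments and fold enrichments of 4.06 and 4.07. The FLAG-Cdx2 summit at 63555301 lay about 2.7 kb inside the gene, and the closest FLAG-Cdx1 summit to the start was about 2.2 kb upstream, at 63560193, with 5 fragments, the lowest pileup called in its list.

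The local background of the 3 FLAG-Cdx2 peaks of AXIN2 was 1.74 to 2.82 times the genome-wide value, the highest median of the 4 windows (2.66). The background of the 5 FLAG-Cdx1 peaks was 1.17 to 1.89 times that value. The lowest pileup called over a background like the median of this window was 8 fragments with FLAG-Cdx2 and 5 with FLAG-Cdx1. Over the range of background of these peaks, it was 6 and 5. The background is known only at called peaks and, without a control, comes from the same library. Its part in the number of peaks was not tested. Ranking by fold enrichment, which takes the background into account, moved the median percentile of the 3 FLAG-Cdx2 peaks from 80.5 to 18.8. FLAG-Cdx2 summits were absent from 32.7 kb of the window, 60.6% of its length, and FLAG-Cdx1 summits from 21.6 kb within that stretch.

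NKD1 (gene ID 85407) is read from the plus strand of chromosome 16, and its window ran from 50572000 to 50679000, between BRD7 upstream and SNX20 downstream. Its highest peak was a FLAG-Cdx2 peak with its summit at 50657656, about 76 kb into the gene, with 14 fragments (7.65 to 23.5), a percentile of 92.4 and a fold enrichment of 8.85, the highest fold enrichment of the FLAG-Cdx2 peaks in the 4 windows. The next, at 50638427, had 12 fragments (6.20 to 21.0) and a fold enrichment of 7.67, and the third, at 50592746, had 7 fragments and a fold enrichment of 4.54. The background of all NKD1 peaks was close to the genome-wide value, at 1.00 to 1.31 times with FLAG-Cdx2 and 1.00 to 1.03 times with FLAG-Cdx1. NKD1 thus held 2 FLAG-Cdx1 and 5 FLAG-Cdx2 peaks, and its higher FLAG-Cdx2 peaks stood over a low background.

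The FLAG-Cdx1 peaks of NKD1, at 50632891 and 50656913, each had 9 fragments (4.12 to 17.1), with fold enrichments of 5.56 and 5.48. FLAG-Cdx2 summits lay 1356 and 743 bp away, outside the limit for sharing. None of 2 FLAG-Cdx1 and none of 5 FLAG-Cdx2 peaks was shared, which with so few peaks allows shares of up to 84.2% and 52.2%. The first 60.9 kb of the window held no FLAG-Cdx1 summit, and the FLAG-Cdx2 summit closest to the gene start was about 11 kb inside. All 7 summits lay within the gene as placed from the window, and neither flank held one. The NKD1 model of RefSeq in GRCh38.p14 is longer than the gene as placed here, so these distances from its start are less certain than those of the other genes.

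**Figure D2:**
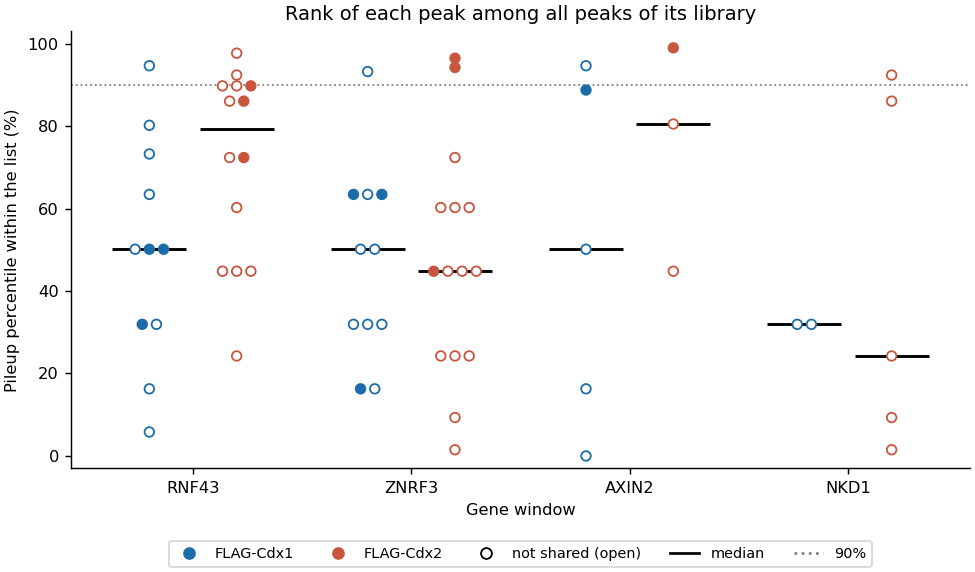
Pileup percentile of each peak among all peaks of its library (%, vertical axis) by gene window, with FLAG-Cdx1 in blue, FLAG-Cdx2 in red, filled circles for shared peaks, a black bar for the median and a dotted line at 90%. FLAG-Cdx2 peaks of RNF43 and AXIN2 have the highest medians by pileup (79.2 and 80.5, the latter of 3 peaks). Ranked by fold enrichment, these medians were 63.9 and 18.8. Above the dotted line stand 9 of the 66 peaks, 10.3% with FLAG-Cdx1 and 16.2% with FLAG-Cdx2, against 8.67% and 7.62% of the whole lists.

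Shared sites were also compared after scaling the pileup to the number of kept tags (per 1000000). On this scale, FLAG-Cdx2 was higher at 7 of the 7 sites, with ratios of FLAG-Cdx2 to FLAG-Cdx1 from 1.19 to 1.91. The share of all shared peaks with a ratio above 1 was not determined. The AXIN2 upstream site had 0.912 fragments on this scale with FLAG-Cdx1 and 1.74 with FLAG-Cdx2, a ratio of 1.91 (95% interval, 0.962 to 3.92). The ZNRF3 site 139 kb into the gene had 0.669 and 1.23 fragments on this scale, a ratio of 1.84 (0.815 to 4.36). The lowest ratio, 1.19, was found at the RNF43 site 12 kb into the gene (0.446 to 3.20) and at the ZNRF3 site 36 kb into the gene (0.391 to 3.65). At both, the libraries had equal pileups (10 and 10, 8 and 8), so that this ratio came from the scaling to kept tags alone. All 7 intervals, which cover counting error only, included 1. Over all 57545 shared peaks of the lists, the median ratio was 1.05 (25th to 75th percentile, 0.817 to 1.34), and the ratios of the 7 sites stood above 58.7% to 93.9% of them. In 0 of the 7 sites did both peaks have a pileup above 90% of their own list, and how often this held over all shared peaks was not determined. Summits of shared sites were 4 to 75 bp apart, and 6 of the 7 sites lay within a gene, the exception being the site upstream of AXIN2.

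The peaks that were not shared lay well outside the limit of 100 bp. The 22 such FLAG-Cdx1 peaks lay 743 to 9473 bp from the nearest FLAG-Cdx2 summit, and the 30 such FLAG-Cdx2 peaks lay 743 to 32221 bp from the nearest FLAG-Cdx1 summit. No summits of different libraries lay between 75 and 743 bp apart, so that a limit of 200 bp gave the same shared sites as 100 bp. Of the 9 peaks with a pileup above 90% of their list, 3 were shared, all with FLAG-Cdx2, namely those of ZNRF3 about 87 and 139 kb into the gene and that upstream of AXIN2. The 3 FLAG-Cdx1 peaks of this kind, 1 each at RNF43, ZNRF3 and AXIN2, were not shared. The share of shared peaks among all peaks this high in the lists was not determined. These counts are therefore not read as a trait of the windows.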

How the data were processed

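Peaks of 2 ChIP-seq libraries, 1 each for FLAG-Cdx1 and FLAG-Cdx2 in DLD1-TetOff cells, were taken from the lists deposited by the authors. Per the submitters' processing notes, bcl2fastq 1.8.3, cutadapt 1.1, Trimmomatic 0.32 and MACS2 2.0.10 were used, with the build GRCh37. The aligner is not given plainly in the sources used here. Per the file headers, peaks were called per library without a control, a local background over 10000 bp, a q-value of 0.05 as the limit and duplicates reduced to 1 tag. Each deposited list gives the pileup signal at the summit in fragments, −log10 values of p and q, and the fold enrichment, a ratio to the local background. Dividing pileup by fold enrichment, with 1 added and then taken off, gave back the background.

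Summits were counted in the 4 gene windows and matched between libraries by distance. Intervals at 95% are exact Poisson for counts, exact binomial for shares, and exact conditional for ratios. The matching of summits was checked on the FLAG-Cdx1 list against a copy of it with shared summits planted, and the counting in a single window of that list. All other summits of the copy were moved far away, so unshared summits at close distances were not covered by this check. No test was made between libraries. In each window, the 3 peaks of highest pileup per library and shared sites with both pileups above 90% of the list were to be named; shared sites and peaks nearest to gene starts were added after their values were seen. The genes, windows and lists were chosen with earlier results of these data known. Strands of ZNRF3, AXIN2 and NKD1 are textbook knowledge. RefSeq promoters were searched for letters on both strands. Peaks at other Wnt pathway genes were not analyzed here, since no annotation of GRCh37 was used. Calculations used scipy 1.17.1, pandas 2.3.3 and numpy 2.4.6 under Python 3.11.15, and plots matplotlib 3.10.9.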

Additional observations from a re-analysis of the deposited data

How the results depend on the processing

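Of 131 comparisons with an alternative setting, 94 stayed within 1.5 times the value (densities) or within its 95% interval, or the range of its peaks where they were too few for one (other values), 36 moved and 1 turned around. With so few peaks the intervals were wide, for example 0.409 to 26.25 for the ratio at NKD1. Staying within such an interval therefore says little about stability, and a ratio that fell to 1 was also counted as staying. The place among bins of other lengths or with stricter lists, and the ratios in shorter or longer windows, were added after the data were seen. The turn was the ratio of FLAG-Cdx2 to FLAG-Cdx1 peaks at ZNRF3, 1.36 with all peaks and 0.429 where −log10 q reached 5. With this threshold, densities per 100 kb with FLAG-Cdx1 and FLAG-Cdx2 were 5.81 and 8.14 at RNF43, 3.59 and 1.54 at ZNRF3, 3.70 and 1.85 at AXIN2, and 1.87 (the same) and 1.87 at NKD1. With a fold enrichment of at least 5 they were 6.98 and 8.14, 3.59 and 3.59, 3.70 and 1.85, and 1.87 with FLAG-Cdx2 at NKD1. In the 50000 peaks of highest −log10 q they were 1.16 and 8.14, 0.513 and 1.03, 3.70 and 1.85, and 0 and 1.87, and the ratio at RNF43 rose from 1.27 to 7. A stricter list holds fewer peaks by construction. About the gene alone, AXIN2 had 2.94 FLAG-Cdx2 peaks per 100 kb, and with a further 10 kb on each side NKD1 had 3.15 FLAG-Cdx1 peaks per 100 kb. Against bins of the length of each window, the density at RNF43 was above 92.0% and 98.1% of the bins. With the same −log10 q threshold on each list, the shared share at RNF43 was 0% in both libraries, of 5 FLAG-Cdx1 and 7 FLAG-Cdx2 peaks. With FLAG-Cdx2 it was 66.7% at ZNRF3, of 3 peaks, and 100% at AXIN2, of 1 peak. The share over the whole lists with this threshold was not determined, so these shares are not compared between genes. The median percentile of FLAG-Cdx2 peaks was 18.8 by fold enrichment and 35.3 by −log10 q at AXIN2, and 80.2 at ZNRF3 with the −log10 q threshold. For the FLAG-Cdx1 peaks of NKD1 it was 54.6, 49.6, 33.0 within chromosome 16 and 0 with the threshold. The cause of these shifts in percentile was not tested.

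No paired analysis was possible because each factor had 1 library. Peaks at other Wnt pathway genes, letters under the summits and distances to annotated starts were not run, for want of a GRCh37 annotation and genome here. Binding below pileups of 5 fragments with FLAG-Cdx1 and 4 with FLAG-Cdx2 was not called at this depth.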

Other observations

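Within 100 kb beyond each window, the highest peaks were compared with those inside, a search chosen after the data were seen. Beyond the downstream edge of the AXIN2 window, 17.6 kb away, a FLAG-Cdx1 summit at 63496398 and a FLAG-Cdx2 summit at 63496400 of chromosome 17 lay 2 bp apart. Their pileups of 25 and 27 fragments (percentiles, 98.6 and 99.3) and fold enrichments of 8.89 and 9.21 were above those of every peak inside the AXIN2 window in the same library. Around this window, 19 FLAG-Cdx1 and 27 FLAG-Cdx2 peaks were called in the outer 100 kb on both sides, of which 7 were shared. This was 9.5 per 100 kb outside and 9.26 inside with FLAG-Cdx1, and 13.5 outside and 5.56 inside with FLAG-Cdx2.

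Around RNF43, the outer 100 kb on both sides held 10 FLAG-Cdx1 and 10 FLAG-Cdx2 peaks, or 5 per 100 kb in each library, against 12.8 and 16.3 inside, and the highest pileups outside were 13 and 11. Beyond the ZNRF3 window, the highest FLAG-Cdx2 peak, at 29516292 of chromosome 22, had 19 fragments and lay 11 bp from a FLAG-Cdx1 summit. Beyond the NKD1 window, on the downstream side, the highest FLAG-Cdx1 and FLAG-Cdx2 peaks had 22 and 17 fragments at summits 196 bp apart, both higher than any pileup inside. Their fold enrichments were 7.76 and 6.41, and the FLAG-Cdx2 value was below those of the inner peaks at 50657656 (8.85) and 50638427 (7.67). Which gene these outer peaks belong to was not determined.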
